A study of Mus musculus with 32 samples.

Results

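The MiT/TFE transcription factors and the folliculin-Rag regulators are 9 of the 56246 genes in the deposited count table: Tfeb, Tfe3, Mitf, Tfec, Flcn, Fnip1, Fnip2, Rragc and Rragd. They were taken by symbol, as a family and its regulators, and all 9 were found. RNA was sequenced from LSK marrow cells, the lineage-negative Sca-1+ Kit+ fraction that holds the stem cells, and from GMP, the granulocyte-macrophage progenitors. Both populations were sorted from C57BL/6 mice carrying a transgenic FLT3-ITD, an activating duplication in a receptor tyrosine kinase, and every group, the vehicle groups included, carries that allele. The mice had been treated with Lys05, a lysosomal inhibitor that blocks autophagy, with AC220 (quizartinib, a FLT3 kinase inhibitor), with both drugs (the combination), or with vehicle. Each of these 8 groups has 4 libraries, which the labels call biological replicates. Age, dose, time, batch and any link between an LSK and a GMP library are not given in the labels used here, and neither is the promoter that drives the transgene.

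TFEB, TFE3, MITF and TFEC are basic helix-loop-helix leucine zipper proteins that bind E-boxes and the longer CLEAR element in the promoters of lysosome and autophagy genes. In nutrient-rich cells the kinase complex mTORC1 phosphorylates TFEB and TFE3 on the lysosome surface, 14-3-3 proteins bind them, and they stay in the cytosol. Folliculin (Flcn) with its partner FNIP1 or FNIP2 is the GTPase-activating protein for RagC and RagD (Rragc, Rragd), and the GDP-bound form of these GTPases presents TFEB and TFE3 to mTORC1. RagD and folliculin are also known targets of the family, which closes a feedback loop. Their RNA is what was measured here. Phosphorylation and nuclear entry, through which the factors are mainly controlled, were not.

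The promoters of 3 regulators are shown because their RNA is followed below and because they differ in the E-box, CACGTG, that these factors bind. Each is the 250 bases before the start site of the RefSeq promoter table (GRCm38.p6), in the direction of transcription, with CACGTG in capitals. The Rragc window is chr4:123917183-123917432 on the + strand, the Fnip1 window chr11:54437929-54438178 on the + strand, and the Flcn window chr11:59810040-59810289 on the - strand.
Rragc: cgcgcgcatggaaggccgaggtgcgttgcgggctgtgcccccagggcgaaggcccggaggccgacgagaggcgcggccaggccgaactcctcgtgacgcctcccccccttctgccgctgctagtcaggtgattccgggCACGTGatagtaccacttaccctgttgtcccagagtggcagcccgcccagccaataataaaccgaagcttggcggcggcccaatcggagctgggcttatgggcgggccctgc
Fnip1: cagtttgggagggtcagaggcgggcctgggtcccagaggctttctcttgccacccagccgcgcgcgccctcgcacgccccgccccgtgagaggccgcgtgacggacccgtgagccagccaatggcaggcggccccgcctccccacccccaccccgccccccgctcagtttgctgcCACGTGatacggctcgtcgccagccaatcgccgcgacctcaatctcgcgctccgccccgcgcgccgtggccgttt
Flcn: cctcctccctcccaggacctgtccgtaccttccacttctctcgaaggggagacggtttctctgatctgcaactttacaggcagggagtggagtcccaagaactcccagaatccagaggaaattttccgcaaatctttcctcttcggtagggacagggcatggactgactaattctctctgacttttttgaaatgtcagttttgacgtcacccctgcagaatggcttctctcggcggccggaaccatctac

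CACGTG and the longer TCACGTGA, which contains it, were searched in the whole RefSeq windows of 250 bases before to 50 after each start. Both are palindromes, so a match counts for both strands. Of the 14 windows of the 9 members (3 each for Tfeb and Mitf, 2 for Tfe3), 2 hold CACGTG, those of Rragc and Fnip1, and 0 hold TCACGTGA. The match begins at -112 in Rragc and at -75 in Fnip1, counted with the start site as 0. Over all 32851 windows of the table the shares are 7.15% for CACGTG and 0.974% for TCACGTGA. Counted per gene, with a match in any window of the gene, the shares are 8.093% and 1.125% of 27025 genes. Of 25 CLEAR target genes with a window in the table, also counted per gene, 12 hold CACGTG and 7 hold TCACGTGA. That list was chosen in part for genes known to carry the element. A match describes the letters only, and these data hold no binding measurement.

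Gene counts per library numbered 35.7M to 55.9M. The labels of the cell types fit their markers: the summed level of 5 granule genes was 2580 to 7943 CPM (gene counts scaled to library size with TMM factors) in LSK, against 24360 to 97880 CPM in GMP. The summed level of 9 LSK markers was 502 to 1449 CPM in LSK, against 86.7 to 303 CPM in GMP. Replicates agreed more closely in LSK than in GMP: a library's median correlation with its own group was 0.9 to 0.989 in LSK and 0.687 to 0.963 in GMP. The LSK libraries with AC220 stood apart in transcript length. In them 9.93% to 14.4% of gene counts fell on genes whose longest transcript is under 1000 bp, against 22.9% to 27.2% in LSK libraries without AC220 (exact two-sided permutation test, 8 against 8 libraries, p = 0.000155, the smallest this design allows). In GMP the share averaged 27.1% with AC220 and 27.8% without (exact permutation p = 0.67). The part of this shift in the results was not tested. Log2 fold changes with AC220 in LSK were also computed with an offset for transcript length and GC content.

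Across genes, levels were compared per kilobase of exon, with all exons of a gene merged. This length exceeds the longest transcript unequally (5594 against 1787 bp for Tfec, 4322 against 3437 bp for Flcn). The order of the members can therefore depend on the choice of length. In vehicle LSK, Rragc was the most abundant member, at 9.34 ± 2.58 CPM per kb (SD, n = 4), ahead of Flcn at 2.78 ± 1.59, Tfec at 1.65 ± 0.719, Tfe3 at 1.15 ± 0.515 and Tfeb at 1.01 ± 0.519 CPM per kb. Tfe3 lay within 1 SD of Tfec and of Tfeb. Fnip2 (0.355 CPM per kb), Fnip1 (0.291), Mitf (0.166) and Rragd (0.017) were lower. In vehicle GMP, Tfec led the family at 7.85 ± 1.94 CPM per kb, beside Rragc at 6.20 ± 1.77, and Tfeb stood at 3.31 ± 0.952 and Tfe3 at 1.78 ± 0.467 CPM per kb. Flcn (1.42), Mitf (0.744), Fnip1 (0.642), Fnip2 (0.285) and Rragd (0.0259 CPM per kb) followed. Mitf, the melanocyte and mast cell member, was thus the scarcest of the 4 factors in both vehicle populations.

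In the fit with TMM factors, Flcn, Tfeb and Rragc were higher in LSK with AC220 than with vehicle. Rragc did not pass with the length and GC offset. The shift in transcript length described above coincides with AC220 in LSK, so it cannot be told apart from the drug. AC220 against vehicle raised 3 of the 9 members and lowered 0 (edgeR quasi-likelihood test, Benjamini-Hochberg adjusted p under 0.05 over 15730 genes). In this comparison 54.9% of all tested genes were called and 29.4% were called higher, so 3 of 9 is close to the share of all genes. In bulk RNA, fewer cells of a type and less RNA per cell cannot be told apart. Values within LSK are in CPM from the fit of the LSK libraries. Where groups are described as separate or without overlap, here and below, the share of all genes with such a separation was not counted.

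Flcn (ENSMUSG00000032633, chr11:59791408-59810016, - strand, GRCm38) encodes the catalytic subunit of the folliculin complex. It stood at 67.6, 82.2, 70.8 and 80.7 CPM with AC220, against 24.9, 9.56, 17.2 and 6.31 CPM with vehicle. All 4 AC220 libraries lay above all 4 vehicle libraries, and the vehicle libraries differed among themselves. The log2 fold change was 2.38 ± 0.31 (SE, n = 4 each, adjusted p = 7.085e-06), and 1.24 (adjusted p = 0.00315) with the length and GC offset.

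Tfeb (ENSMUSG00000023990, chr17:47737030-47792419, + strand) encodes the best-studied driver of lysosome biogenesis. It stood at 30.9, 23.5, 20.3 and 24.6 CPM with AC220, against 2.71, 11.4, 6.98 and 6.56 CPM with vehicle. Again the groups did not overlap. The log2 fold change was 1.85 ± 0.33 (edgeR adjusted p = 0.000166), and 0.92 (adjusted p = 0.0161) with the offset.

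Rragc (ENSMUSG00000028646, chr4:123917446-123936997, + strand) encodes the GTPase that folliculin acts on. It stood at 69.9, 63.1, 61.9 and 68.6 CPM with AC220, against 24.6, 34.1, 45.3 and 46.2 CPM with vehicle. The groups were separate, with a smaller change than for Flcn and Tfeb: a log2 fold change of 0.81 ± 0.21 (edgeR adjusted p = 0.00387). With the offset it was 0.41 and did not pass (adjusted p = 0.121).

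Tfe3 (ENSMUSG00000000134, chrX:7762560-7775202, + strand), the ubiquitous paralog of Tfeb, did not pass. It stood at 21.4, 21.3, 16.4 and 23.2 CPM with AC220, against 9.31, 20.7, 13.02 and 7.96 CPM with vehicle, and the groups overlapped through vehicle library 2. Its log2 fold change was 0.69 ± 0.32 (edgeR adjusted p = 0.0802), and -0.59 (adjusted p = 0.13) with the offset, so no direction can be given for Tfe3. Without vehicle library 2 it was 1.03 (adjusted p = 0.0115).

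The other 5 members did not pass with AC220. Fnip1 ranged over 2.69 to 4.21 CPM with AC220 and 1.94 to 3.08 CPM with vehicle, Fnip2 over 4.10 to 7.70 and 1.40 to 6.88 CPM, Tfec over 8.89 to 16.8 and 4.01 to 14.5 CPM, and Mitf over 0.758 to 1.57 and 0.0998 to 1.93 CPM. Each of these ranges overlapped. Log2 fold changes were 0.44 ± 0.34 for Fnip1 and 0.55 ± 0.44 for Fnip2 (0.11 with the offset), the folliculin partners, 0.18 ± 0.41 for the myeloid factor Tfec and -0.12 ± 0.69 for Mitf (-0.07 with the offset). With the offset, Fnip1 (0.99, adjusted p = 0.0168) and Tfec (1.13, adjusted p = 0.0414) passed as higher. That fit therefore called 4 members, Tfeb, Flcn, Fnip1 and Tfec, where 26.1% of all genes were called higher.

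**Figure D1:**
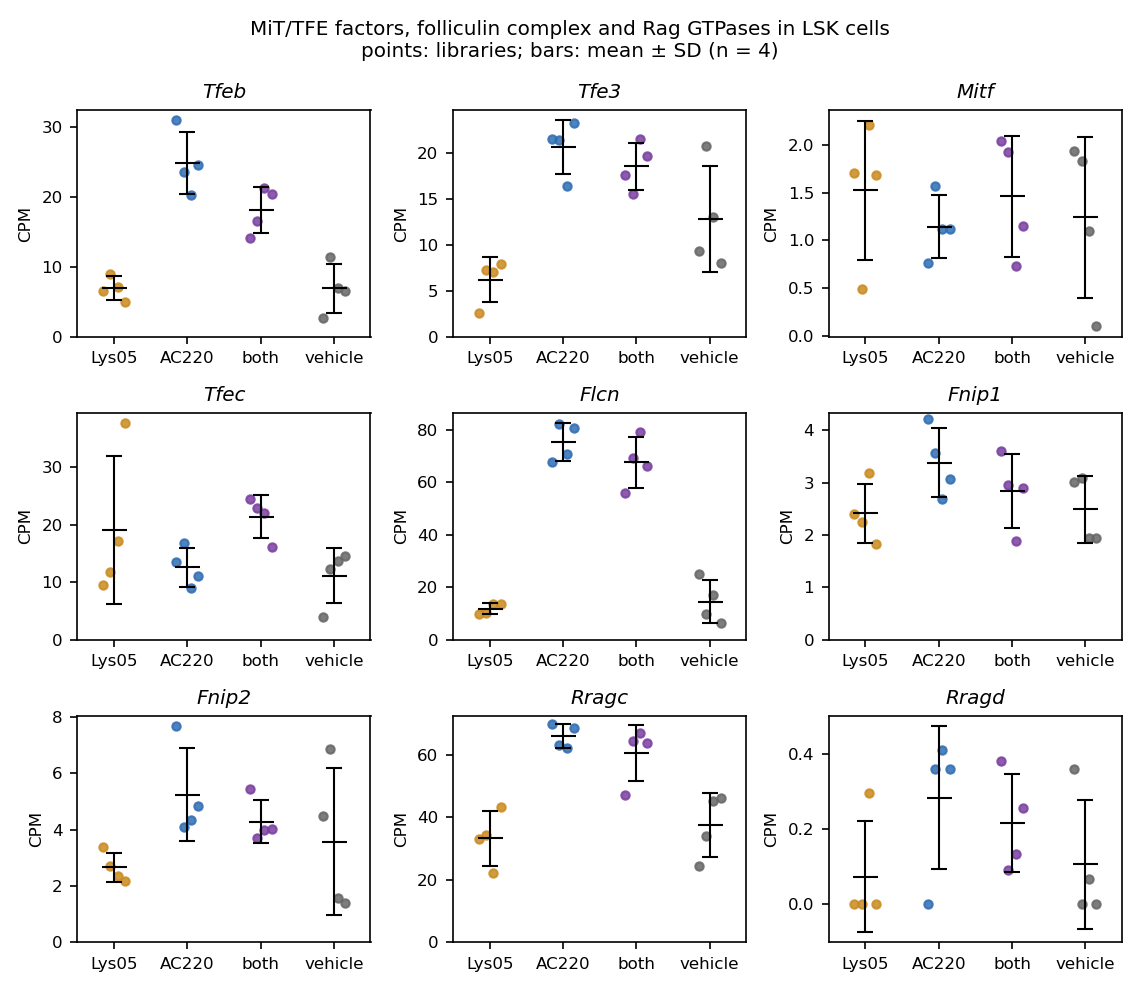
Levels of the 9 members in LSK cells, in CPM on the vertical axis of each panel, for Lys05, AC220, both drugs and vehicle. Points are libraries and bars are mean ± SD (n = 4). For Flcn, Tfeb and Rragc the libraries with AC220, alone or with Lys05, lie above all vehicle libraries.

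The combination against vehicle called the same 3 genes, against the same 4 vehicle libraries, so these comparisons are not independent. Over all genes 51.8% were called and 28.3% were called higher. Flcn stood at 55.8, 69.2, 79.2 and 66.1 CPM with the combination (log2 fold change 2.22 ± 0.31, adjusted p = 1.62e-05). With the offset it was 1.24 (adjusted p = 0.00326). Tfeb stood at 14.1, 16.6, 21.2 and 20.5 CPM, a log2 fold change of 1.39 ± 0.33 (edgeR adjusted p = 0.00191) that did not pass with the offset (0.56, adjusted p = 0.13). Rragc, at 47.1, 64.2, 66.9 and 63.8 CPM, had a log2 fold change of 0.69 ± 0.21 (edgeR adjusted p = 0.0121), and 0.24 (adjusted p = 0.367) with the offset. Tfec stood at 24.6, 23.0, 22.0 and 16.04 CPM with the combination, against 4.01, 12.3, 13.6 and 14.5 CPM with vehicle. Its groups did not overlap, and the log2 fold change of 0.95 ± 0.42 missed the threshold (edgeR adjusted p = 0.0694), while the offset gave 1.68 (adjusted p = 0.00503). The offset called 2 members higher, Tfec and Flcn, where 25.8% of all genes were called higher.

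The combination against Lys05 asks what AC220 adds in mice that also received Lys05. It shares no library with AC220 against vehicle, but both come from the same fit of the LSK libraries. The shift in transcript length coincides with AC220 in both. The combination against Lys05 called 4 members higher and 0 lower: Flcn, Tfe3, Tfeb and Rragc. Over all genes 49.5% were called and 27.2% were called higher. Flcn was at 55.8 to 79.2 CPM with the combination, against 9.77, 10.3, 13.4 and 13.7 CPM with Lys05. The groups were far apart, with a log2 fold change of 2.52 ± 0.32 (edgeR adjusted p = 4.52e-06). With the offset it was 1.48 (adjusted p = 0.000905). Tfeb was at 14.1 to 21.2 CPM with the combination, against 6.50, 9.01, 7.17 and 4.90 CPM with Lys05, again without overlap. Its log2 fold change was 1.39 ± 0.33 (edgeR adjusted p = 0.0019), and 0.76 (adjusted p = 0.0451) with the offset.

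Tfe3 stood at 17.5, 15.5, 21.4 and 19.6 CPM with the combination, against 2.61, 7.26, 7.06 and 7.85 CPM with Lys05. The groups were separate, with a log2 fold change of 1.58 ± 0.33 (edgeR adjusted p = 0.000736), but 0.45 (adjusted p = 0.267) with the offset. Rragc stood at 47.1 to 66.9 CPM with the combination, against 33.0, 34.4, 22.1 and 43.2 CPM with Lys05. Its log2 fold change was 0.87 ± 0.21 (edgeR adjusted p = 0.00267), with 0.49 (adjusted p = 0.0732) under the offset. The offset thus kept Flcn and Tfeb, where 24.4% of all genes were called higher. Flcn was called in each of these 3 comparisons with and without the offset. Mitf, Tfec, Fnip1 and Fnip2 had log2 fold changes of -0.06, 0.17, 0.24 and 0.69 in this comparison and did not pass. With the offset they were -0.14, 1.04, 0.58 and 0.10, the value of Tfec having an adjusted p of 0.0633. Of these, Fnip2 did not overlap between the groups, at 3.72 to 5.44 CPM with the combination and 2.2 to 3.37 CPM with Lys05 (edgeR adjusted p = 0.213). The share of all genes without overlap in this comparison was not counted.

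**Figure D2:**
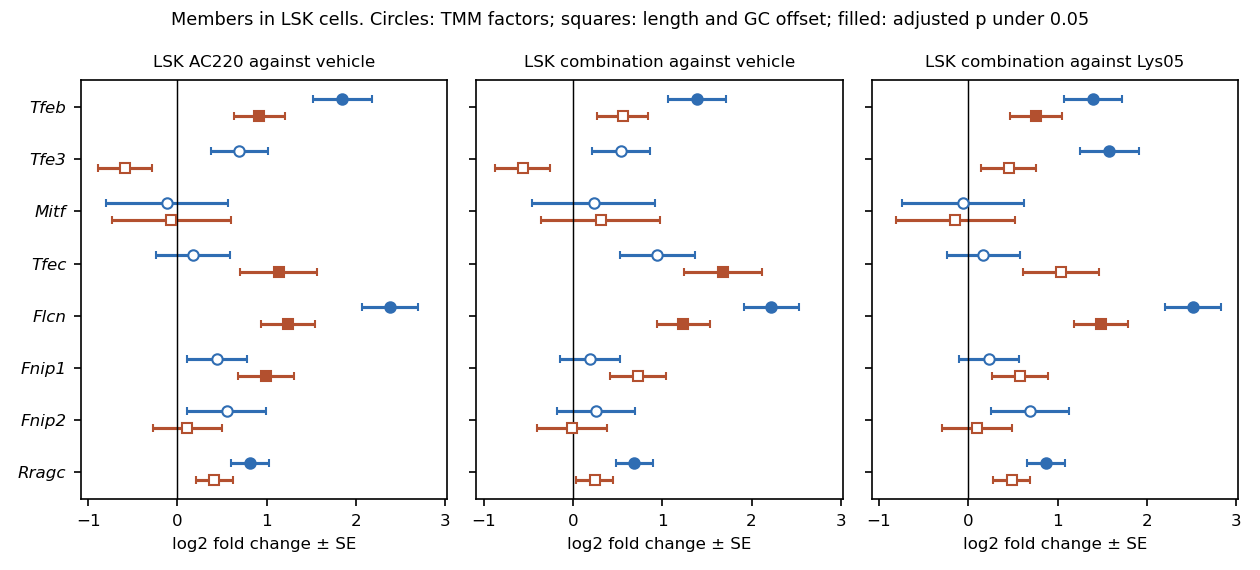
Log2 fold changes ± SE of 8 members in LSK for AC220 against vehicle, the combination against vehicle and the combination against Lys05. Circles are from the fit with TMM factors, squares from the fit with an offset for transcript length and GC content, and filled symbols have an adjusted p under 0.05. Flcn is filled in all 6 estimates, and Tfe3 changes sign between the fits in the first 2 panels.

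Marker genes of several cell types also moved with AC220 in LSK. Among all genes, 54.9% were called with AC220 against vehicle and 29.4% were called higher (26.1% higher with the offset). Summed LSK markers (9 of 9 detected in each library) were at 1013 to 1449 CPM with AC220, against 502 to 644 CPM without, and 5 of 9 were called higher with AC220 against vehicle and 0 lower, with and without the offset. Monocyte and dendritic cell markers (9 or 10 of 10 detected) summed to 349 to 6605 CPM with AC220 and 4325 to 29210 CPM without, mostly from H2-Ab1, an MHC class II gene, and 3 of 10 were called higher and 3 lower (3 and 0 with the offset). Of the 5 granule markers 1 was called higher and 4 lower (1 and 0 with the offset). Tissue macrophage markers were low: 23.0 to 78.3 CPM with AC220 (11 or 12 of 12 detected), against 6.73 to 24.4 CPM without (7 to 10 detected, Cd5l and Marco at 0). Of the 11 tested, 4 were called higher with AC220 against vehicle and 0 lower. The B, T and NK cell list, which is nearly all Nkg7, summed to 268 to 595 CPM with AC220 and 1299 to 2276 CPM without (Cd3e at 0). Of its 5 tested genes 1 was called higher and 3 lower. Nkg7 had a log2 fold change of -2.20 with AC220 against vehicle, and -0.36 with the offset. Basophil and mast cell markers, of cells that use Mitf, summed to 36.4 to 133 CPM with AC220 (5 to 8 of 8 detected) and 111 to 260 CPM without (3 to 8 detected). Of the 6 tested, 0 were called higher and 3 lower. Erythroid and megakaryocyte markers summed to 85.3 to 1371 CPM with AC220 and 84.8 to 509.6 CPM without, and of 8 tested 0 were called higher and 1 lower. The part of these shifts in the members' levels was not tested.

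With Lys05 alone, no member passed the threshold in LSK. In Lys05 against vehicle, edgeR called 0 of 15730 genes (0%), 2718 had an unadjusted p under 0.05, DESeq2 called 607 and limma voom 0. Without vehicle library 3 edgeR called 211 genes. Of the members, Tfe3 alone had an unadjusted p under 0.05. It was lower with Lys05 in 4 of 4 libraries than in any vehicle library (log2 fold change -1.04 ± 0.33, edgeR adjusted p = 0.156, DESeq2 adjusted p = 0.0448). The gap was narrow, from 7.85 CPM in the highest Lys05 library to 7.96 CPM in the lowest vehicle library. The log2 fold change of Flcn was -0.29 ± 0.30 (95% interval -0.93 to 0.34) and that of Rragc -0.18 ± 0.21 (-0.63 to 0.27). Tfeb averaged 6.89 CPM with Lys05 and 6.9 CPM with vehicle, with a 95% interval of -0.69 to 0.68 for its log2 fold change.

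When Lys05 was added to AC220, again no member passed. The combination against AC220 called 56 of 15730 genes (0.356%) and 0 of 9 members, of which 0 had an unadjusted p under 0.05. DESeq2 called 0 members, and voom 1, Tfec (0.77, adjusted p = 0.0158). The 95% intervals were -1.13 to 0.22 for Tfeb, -0.78 to 0.47 for Flcn and -0.57 to 0.32 for Rragc. The interaction of the drugs was called for 0 genes (0%), with 1645 at an unadjusted p under 0.05 and 118 called by DESeq2 and 0 by voom, and for 0 members by any of the 3 tools. Tfe3 had the largest interaction among the 8 members other than the near-silent Rragd, at 0.89 ± 0.46 (edgeR adjusted p = 0.515).

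The neighbours of the members in the pathway were counted from lists chosen with earlier results of these data known. In AC220 against vehicle in LSK, 5 of 8 genes of Ragulator, the lysosomal anchor of the Rag GTPases, and the other Rag GTPases were lower and 1 higher. Their median log2 fold change was -0.86, against 0.09 over all genes. Of all 15730 genes, 4006 were called lower and 4626 higher, together 54.9%. Lamtor2 (-3.71 ± 0.13, edgeR adjusted p = 5.03e-12), Lamtor5 (-2.83) and Lamtor4 (-1.80) are subunits encoded by short transcripts. With the offset 2 of 8 were lower and 3 higher, with a median of 0.51 against 0.20 over all genes. Of all 15730 genes, 2940 were called lower and 4110 higher with the offset. Lamtor2 and Lamtor5 remained lower (-2.01 and -0.73) while Lamtor4 did not pass (-0.19). The sign of this list's median therefore turns with the offset.

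Of mTORC1 and its switch, 6 of 9 genes were higher and 2 lower, with a median of 0.82, where 29.4% of all genes were higher. Rheb, the GTPase that activates mTORC1, was lower (-2.16 ± 0.13, edgeR adjusted p = 4.92e-10), and Tsc2 (1.58) and Tsc1 (1.59), its inhibitory complex, were higher. With the offset 3 were higher and 2 lower, close to the 26.1% of all genes called higher, with Rheb at -1.56, Tsc2 at 0.58 and Tsc1 at 0.96, all 3 still past the threshold.

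Of 16 GATOR, KICSTOR and sensor genes, 8 were higher and 1 lower (7 and 1 with the offset). The 9 called are close to the 54.9% of all genes called. By direction, 8 of 16 higher stand beside 29.4% of all genes called higher, and 7 of 16 beside 26.1% with the offset. Sesn1, a stress-induced sestrin, had a log2 fold change of 1.61 ± 0.16 (edgeR adjusted p = 4.15e-07), the GATOR2 subunit Wdr24 1.78 and the GATOR1 subunit Nprl3 1.79. With the offset these values were 0.84, 0.56 (adjusted p = 0.034) and 0.82 (adjusted p = 0.0319). Of 17 kinase, phosphatase and 14-3-3 genes that act on TFEB, 7 were higher and 3 lower (4 and 5 with the offset), again close to the 54.9% of all genes. Akt1 (3.34 ± 0.20, edgeR adjusted p = 4.39e-10) and Gsk3a (2.89), kinases that phosphorylate TFEB, rose, and the 14-3-3 gene Ywhae fell by 0.92 on the log2 scale. With the offset the log2 fold changes were 2.14, 1.95 and -0.45, all 3 past the threshold.

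Of the lysosome and autophagy genes known as targets of the family, 30 of 32 were tested. AC220 raised 24 of them and lowered 2, the median log2 fold change being 1.29 against 0.09 over all genes, of which 29.4% were higher. With the offset 12 were higher and 3 lower, with a median of 0.44 against 0.20, where 26.1% of all genes were higher. Sqstm1, the autophagy receptor p62, was higher (2.21 ± 0.20, edgeR adjusted p = 1.04e-07, and 1.258 with the offset). Map1lc3b, which encodes LC3B of the autophagosome membrane, was lower (-1.98 ± 0.13, adjusted p = 1.21e-09, and -3.02 with the offset). Atp6v0e, a proton pump subunit, was also lower (-3.10 ± 0.16, adjusted p = 8.01e-11, and -3.24 with the offset).

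The same list had 22 higher and 2 lower in the combination against vehicle (11 and 3 with the offset), where 28.3% of all genes were called higher (25.8% with the offset). In the combination against Lys05 it had 19 higher and 3 lower (11 and 2 with the offset), where 27.2% of all genes were called higher (24.4% with the offset). The chloride-proton exchanger Clcn7 (2.84 ± 0.31, edgeR adjusted p = 9.85e-07) was among the 3 smallest p-values there, beside Atp6v0e (-2.77) and Map1lc3b (-2.11). With the offset these were 1.81, -2.93 and -2.94. In Lys05 against vehicle and in the combination against AC220, 0 of its 30 tested genes passed, with medians of 0.11 and -0.06.

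**Figure D3:**
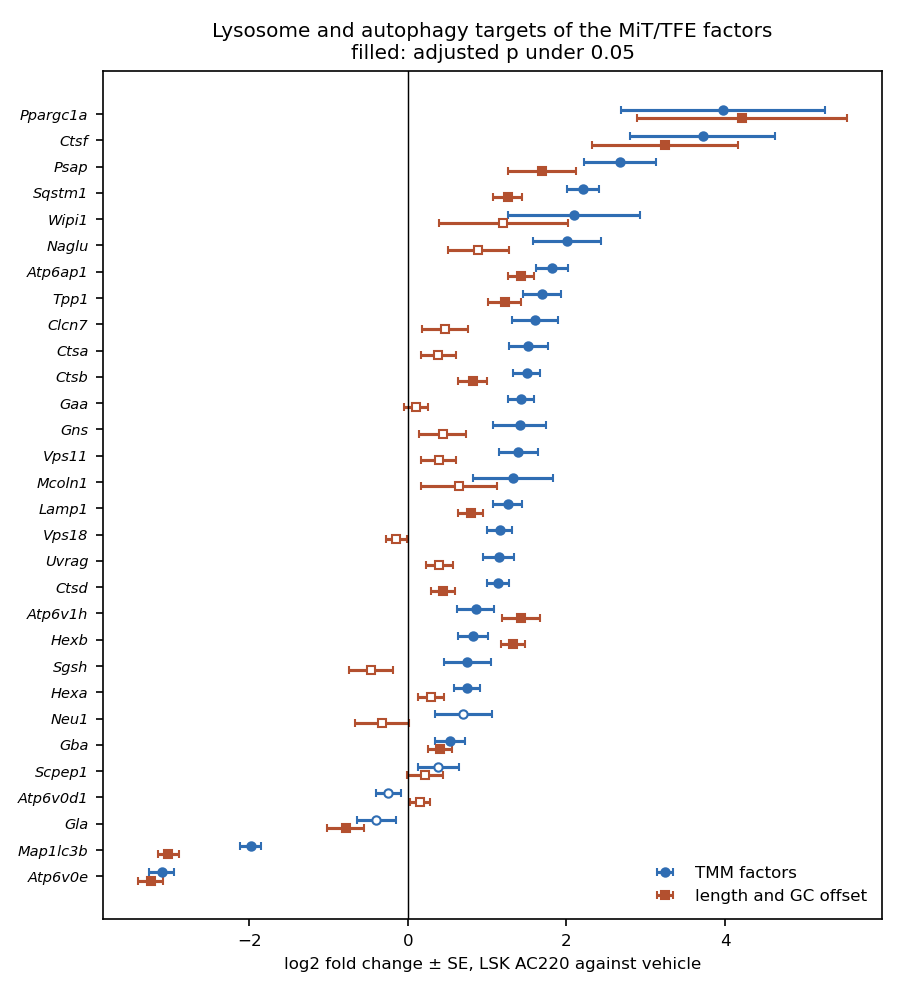
Log2 fold changes ± SE of 30 tested lysosome and autophagy targets in LSK, AC220 against vehicle, ordered by the fit with TMM factors (circles). Squares are from the fit with the length and GC offset, and filled symbols have an adjusted p under 0.05. Most genes lie right of 0 in both fits, the squares nearer to 0, and Map1lc3b and Atp6v0e lie far left in both.

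In GMP no member passed in any of the 6 comparisons by edgeR, DESeq2 or voom. Rragd failed the filter on low counts there and the other 8 were tested. Standard errors of the log2 fold changes of these 8 genes had a median of 0.33 in LSK and 0.98 in GMP, where they ran from 0.53 to 1.32. A change of the size seen for Rragc in LSK was thus not detectable at this spread. Over all genes, edgeR called 0 of 14572 (0%) for Lys05, AC220 and the combination against vehicle, for the combination against Lys05 and for the interaction, and 1 (0.00686%) for the combination against AC220. Unadjusted p-values under 0.05 numbered 159, 1386, 1601, 1786, 1287 and 2035 in that order. DESeq2 called 2, 282, 353, 454, 240 and 818 genes, and voom 756, 250, 2, 512, 1 and 0.

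Tfeb came nearest. In GMP it stood at 7.35, 1.34, 10.4 and 2.41 CPM with the combination and at 7.30, 10.4, 10.5 and 5.28 CPM with AC220, against 25.0, 14.3, 12.7 and 11.3 CPM with vehicle (CPM of the GMP fit). Every library with AC220 lay below every vehicle library. The share of all genes separated in this way was not counted, and edgeR called 0% of genes in these comparisons. Its log2 fold change was -1.55 ± 0.68 for the combination (unadjusted p = 0.0351 in edgeR, adjusted p = 0.417) and -0.92 ± 0.67 for AC220 (adjusted p = 0.755). With Lys05 it was at 10.2, 11.5, 10.8 and 11.8 CPM, a log2 fold change of -0.52 ± 0.67.

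The other members varied widely within GMP groups. Flcn was at 22.1, 1.08, 14.1 and 6.70 CPM with the combination, 3.49, 2.76, 2.53 and 8.28 CPM with AC220, 3.93, 8.03, 8.55 and 12.6 CPM with Lys05, and 0.221, 5.21, 6.85 and 7.09 CPM with vehicle. These ranges overlap throughout. Mitf stood at 10.1 CPM in AC220 library 2, against 0.0589 to 0.21 CPM in the other AC220 libraries and 2.60 to 5.73 CPM with vehicle. Tfe3 had 1 count in AC220 library 3.

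Rragd (ENSMUSG00000028278, chr4:32983037-33022180, + strand), the partner of Rragc and a target of the factors in mouse muscle and liver, was near silent. It had 0 counts in 16 of 32 libraries, where 3 counts would be 0.0537 to 0.0841 CPM, and at most 26 counts in 31. The exception was GMP combination library 3 with 684 counts (17.8 CPM). That library also had 78.6 CPM of Tfec, against 11.3 to 40.0 CPM in the other 3 combination libraries, and the lowest correlation with its group (0.687). Its summed macrophage markers were at 1695 CPM (11 of 12 detected, Marco at 0), against 14.4 to 322 CPM in the other 15 GMP libraries, with C1qb at 665 CPM, Vcam1 at 324 and Axl at 160 CPM. The part of macrophage RNA in the Rragd and Tfec values was not tested. Without that library no member of any GMP comparison passed.

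**Figure D4:**
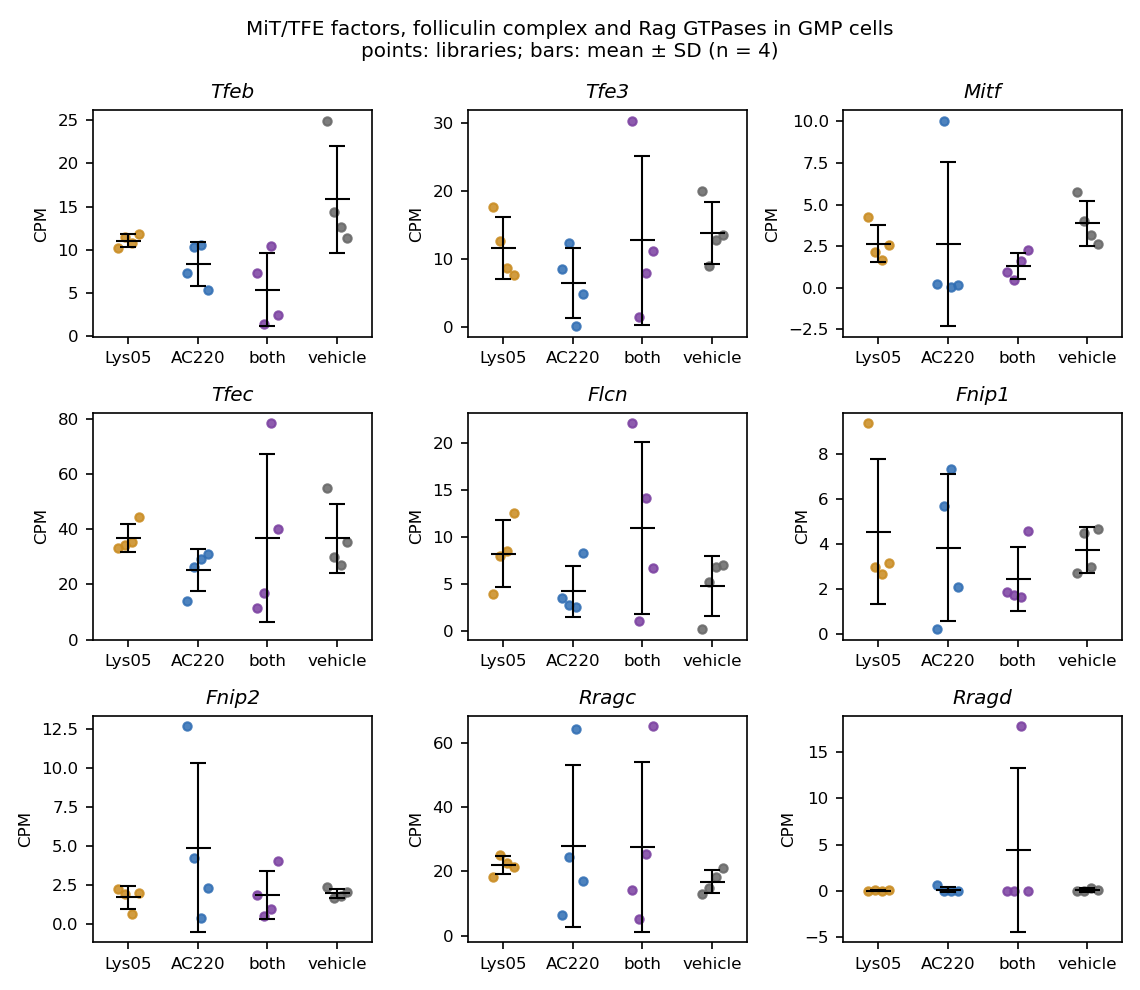
Levels of the 9 members in GMP, in CPM, for Lys05, AC220, both drugs and vehicle. Points are libraries and bars are mean ± SD (n = 4). Tfeb lies lower with AC220 and with both drugs than with vehicle, and single libraries carry the high values of Mitf, Fnip2 and Rragd.

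Between the cell types, Tfec and Tfeb were lower in vehicle LSK than in vehicle GMP, in the fit of all 32 libraries (829 of 17144 genes called, 4.84%, and 3.07% called lower). Tfec stood at 3.31, 10.2, 11.4 and 12.1 CPM in LSK, against 58.6, 36.6, 34.9 and 45.6 CPM in GMP. Its log2 difference was -2.25 ± 0.52 (edgeR adjusted p = 0.00864). Tfeb stood at 2.24, 9.43, 5.81 and 5.46 CPM in LSK, against 26.7, 17.5, 16.3 and 14.6 CPM in GMP. Its log2 difference of -1.71 ± 0.51 passed narrowly (edgeR adjusted p = 0.0472) and did not pass with RLE factors (adjusted p = 0.0729), without a filter (0.118) or with these 2 groups alone (0.0839). Neither gene's groups overlapped. Mitf did not overlap either, at -2.16 ± 1.07 (adjusted p = 0.269). Of the targets, 4 of 32 were lower in LSK and 0 higher, among them Hexa (-1.87) and Lamp1 (-1.54), which encode a lysosomal hexosaminidase subunit and a membrane protein.

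The effect of AC220 on Tfeb differed between the cell types. LSK minus GMP, it was 2.92 ± 0.71 on the log2 scale (edgeR adjusted p = 0.00436), from a log2 fold change of 1.85 in LSK and -0.92 in GMP in their own fits. This comparison called 2884 of 17144 genes (16.8%), 8.33% higher, and the median over all genes was 0.35. Flcn, at 2.78 ± 0.98, was at the threshold (adjusted p = 0.0494) and did not pass with RLE factors (0.0598), without a filter (0.0623), in a fit of only its own groups (0.0787) or without any 1 of 24 libraries. With the length and GC offset neither passed (Tfeb 1.39, adjusted p = 0.27, and Flcn 1.54, adjusted p = 0.301). For the combination, Tfeb differed by 2.99 ± 0.72 (edgeR adjusted p = 0.00495), where 2182 genes (12.7%) were called, 5.13% higher. It did not pass with the offset (2.02, adjusted p = 0.104) or in a fit of only its own groups (adjusted p = 0.0528). The Lys05 effect differed for 0 genes (0%) and 0 members in edgeR, with 500 genes at an unadjusted p under 0.05, 211 called by DESeq2 and 5 by voom.

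**Figure D5:**
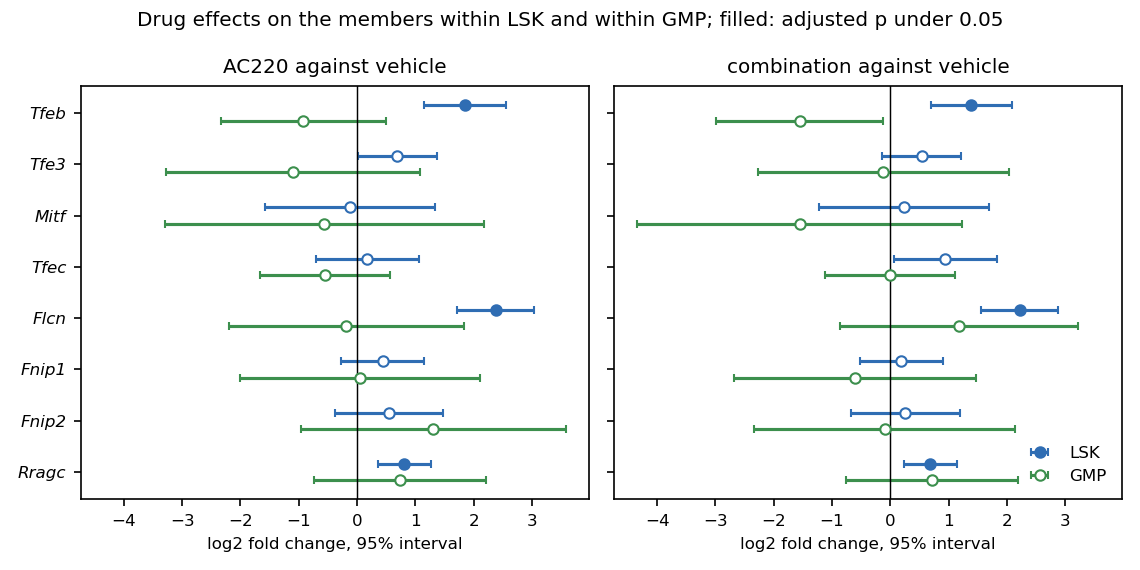
Log2 fold changes of 8 members with 95% intervals within LSK and within GMP, for AC220 and for the combination, each against vehicle. Filled points have an adjusted p under 0.05. The GMP intervals are wider, and Tfeb lies right of 0 in LSK and left of 0 in GMP.

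Over the 8 groups in a single scale, the mean of Tfeb was highest in LSK with AC220 (21.2 ± 3.73 CPM), then GMP with vehicle (18.8 ± 5.40) and LSK with the combination (15.4 ± 2.94 CPM), and lowest in LSK with vehicle (5.74 ± 2.94 CPM). Flcn was highest in LSK with AC220 (64.4 ± 6.49 CPM) and the combination (57.6 ± 8.56 CPM), and every other group averaged 4.78 to 12.6 CPM. Rragc had the same 2 groups on top, at 56.3 ± 3.27 and 51.5 ± 7.997 CPM. Tfec averaged 9.24 to 18.2 CPM in the 4 LSK groups, all below the 27.9 to 47.6 CPM of the 4 GMP groups. Neighbours in these orders had overlapping ranges in 61 of 63 cases. The exceptions were Flcn, between LSK with the combination and the next group, and Tfeb, between GMP with Lys05 and GMP with AC220.

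The genes whose log2 CPM was most like a member's over the 16 LSK libraries were Mdm1, Shc1 and Fubp3 for Flcn and Vps35l, Tmem184b and Adck2 for Tfeb. The LSK libraries fall into those with and without AC220, so Pearson's r is given within each 8, as a description. For Flcn it was 0.641, 0.875 and 0.876 with AC220, and 0.891, 0.84 and 0.787 without. For Tfeb it was 0.864, 0.916 and 0.701 with AC220, and 0.913, 0.882 and 0.955 without. Rragc was most like Lysmd4, Sec23a and Padi2, Tfe3 most like Gpbp1l1, Relb and Dstyk, and Fnip2 most like Pak2, Atxn7l1 and Btbd9. Libraries of a set share depth and transcript length profile, which such a likeness includes.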

How the data were processed

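The authors deposited 1 table of raw counts per Ensembl gene for 32 libraries, made per the labels' protocols from SMARTer v4 low-input RNA and Nextera XT libraries. Named in the submitters' processing notes, with no role or order, are HTSeq 0.11.2, STAR 2.7.3a, the build GRCm38, DESeq2 1.26.0, bcl2fastq 2.20 and Trim Galore 0.6.5. The strand setting is not given in the sources used here. No exon of a member overlaps another gene's exon. The 5 summary lines, 15.2% to 30.9% of a library's counts, stayed out. GENCODE M21 named 55230 of 56246 rows.

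Counts were fitted in edgeR 4.0.16 (filterByExpr, TMM, robust quasi-likelihood) over the 16 LSK libraries (15730 genes), the 16 GMP libraries (14572) or all 32 (17144), with calls at an adjusted p under 0.05. ± is an SE beside a log2 fold change and an SD beside a level. Replicates differed beyond counting noise (chi-square per gene 35.4 to 1402), and the fits were tested on simulated data. Alternatives were RLE factors, DESeq2 1.42.0, voom with quality weights (limma 3.58.1), no filter, only the compared groups, a length and GC offset per library, and leaving out each library.

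Members and lists were chosen with earlier results of these data known. All members are named, and of each list up to 3 genes with the smallest p, other markers being named after their values were seen. The planned comparison of protein sequences was not run.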

Additional observations from a re-analysis of the deposited data

Results flagged for a closer look

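Of 72 groups of 4 libraries (9 members in 8 groups), 10 had a library far from the other 3 (Dixon's gap-to-range test at 95%). The nominal rate of 1 group in 20 holds for normally distributed values. Where 1 library has Rragd counts and the other 3 have 0, the group is always flagged. The 10 flags therefore cannot be set against that rate. In GMP, Mitf was at 10.1 CPM in AC220 library 2, Flcn at 8.28 CPM in AC220 library 4, and Fnip1 at 9.37 CPM in Lys05 library 1 and 4.58 CPM in combination library 4. Rragd was at 17.8 CPM in GMP combination library 3 and 0.604 CPM in GMP AC220 library 1, with 0 counts in the other 3 libraries of each group. In LSK, Tfe3 was at 2.61 CPM in Lys05 library 1 and Rragc at 47.1 CPM in combination library 1, both below the others. Rragd was at 0.296 CPM in LSK Lys05 library 3, with 0 in the others, and at 0 in LSK AC220 library 1, where the others had 0.36 to 0.412 CPM.

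Drug effects that differed between LSK and GMP by the interaction term of the main fit were those of AC220 on Tfeb (2.92) and Flcn (2.78) and of the combination on Tfeb (2.99), on the log2 scale. None of these calls held with the length and GC offset. Flcn also did not pass with RLE factors, without a filter or in a fit of only its own groups. Tfeb with the combination did not pass in a fit of only its own groups.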

How the results depend on the processing

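Flcn and Tfeb kept their calls in the 3 LSK comparisons with AC220 in every alternative other than the offset, which ended Tfeb in the combination against vehicle. Leaving out each LSK library, their log2 fold changes with AC220 against vehicle ranged over 2.15 to 2.78 and 1.59 to 2.2, and those of Rragc over 0.66 to 0.95. Members called moved to 5 with voom for LSK AC220 against vehicle, to 1 with DESeq2 for Lys05, to 1 with voom for the combination against AC220, and to 2 with the offset for the combination against Lys05, from 4. Between cell types, vehicle LSK against GMP called 1 member with RLE factors, no filter or only its groups and 4 with voom, from 2. The AC220 effect called 1 with RLE factors, no filter or only its groups and 0 with the offset, from 2. The combination effect called 2 with voom and 0 with the offset or only its groups, from 1. Without 1 library the members called were 3 to 5 (5 without LSK vehicle library 2) for AC220, 1 to 2 for vehicle LSK against GMP (1 without any 1 of 22 libraries) and 1 to 2 for the AC220 effect. Leaving out single libraries also gave edgeR calls that the main fit did not make. Tfe3 passed with AC220 without LSK Lys05 library 1 (adjusted p = 0.0259) and with the combination without LSK vehicle library 2 (0.0285). Fnip2 passed with AC220 without LSK vehicle library 2 (0.0403), and Tfec with the combination without LSK Lys05 library 4 (0.0272). Rragd passed in the combination against Lys05 without LSK Lys05 library 3 (0.0409), which leaves Lys05 at 0 counts. With all libraries, voom also called Tfe3 (adjusted p = 0.0188) and Fnip2 (0.0463) with AC220. The edgeR fit with the offset also called Tfec with the combination (0.00503). The AC220 effect on Mitf differed between cell types without GMP AC220 library 2 (4.66, adjusted p = 0.0072). The share of short transcripts in LSK fell by 14.2 percentage points, and by 27.3 with a limit of 1500 bp. In GMP it differed by -0.73, and by -1.27 to 0.37 with 1 library left out, the sign turning without combination library 3 (exact permutation p = 0.679). All genes called moved by over 1.5 times in the comparisons between cell types: 1927 (DESeq2), 4350 (voom) and 513 (no filter) for vehicle LSK against GMP, 5585 (voom) for AC220, and 3429 (DESeq2), 3339 (voom), 1422 (offset) and 1329 (only its groups) for the combination. For the combination against AC220 in LSK they were 4 (RLE), 349 (DESeq2), 2152 (voom), 5 (no filter), 1 (offset) and 2 (only its groups), from 56. Leaving out 1 library, they ranged over 0 to 147 there (147 without combination library 4), 0 to 211 for Lys05 in LSK, and 432 (without LSK vehicle library 4) to 1392 (without GMP combination library 3) for vehicle LSK against GMP, with counts also lower by over 1.5 times without LSK vehicle library 3 or GMP vehicle library 3. Of 3167 estimates past the threshold in neither setting, 175 changed sign. All 72 group means stayed within 1 SD with RLE factors. The causes were not tested. No paired analysis was possible because the labels give no replicate numbers.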
